A study of Arabidopsis thaliana with 32 samples.

Results

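The respiratory complex III genes of Arabidopsis thaliana described here were chosen by locus: 10 named nuclear genes for complex III subunits, all 10 of them listed in every monosome and polysome table of the series, out of 28394 gene IDs listed in all. They encode the Rieske iron-sulfur protein (UCR1-1, AT5G13430, and UCR1-2, AT5G13440), cytochrome c1 (CYC1-1, AT3G27240, and CYC1-2, AT5G40810), the core subunits that form the mitochondrial processing peptidase (MPPbeta, AT3G02090; MPPalpha-1, AT1G51980; MPPalpha-2, AT3G16480) and the small subunits QCR7 (QCR7-1, AT4G32470, and QCR7-2, AT5G25450) and QCR8 (QCR8-1, AT3G10860). The study sequenced polyadenylated RNA from the monosome fraction (messages with few ribosomes) and the polysome fraction (messages with many) of sucrose gradients made from whole 10-day-old seedlings, in 32 libraries. Antimycin A (AA) seedlings were Col-0 moved from plates to liquid medium, kept there overnight in the dark, and given 50 µM antimycin A for 5 h by the sample labels, and DMSO seedlings were Col-0 handled in the same way with solvent alone, with 3 replicates of each per fraction. The second experiment used seedlings taken straight from plates: 2OX, 1 line that expresses the mitochondrial calcium uniporter gene MCU2 as a fluorescent fusion from a constitutive viral promoter, the sextuple mutant, with insertion or CRISPR alleles in all 6 MCU genes and described by the study as a knockdown with remaining transcripts, and untreated wild type (WT), with 3, 3 and 4 replicates per fraction. All groups have the Col-0 background, and the 2 lines share wild-type replicates 2 and 4 as controls: 2OX was set against WT replicates 2, 3 and 4, and sextuple against WT replicates 1, 2 and 4.

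Complex III, the cytochrome bc1 complex, takes electrons from ubiquinol and passes them to cytochrome c while it moves protons across the inner mitochondrial membrane. The electrons leave by the Rieske protein and cytochrome c1, or return through cytochrome b, the subunit that the mitochondrial genome encodes and at which antimycin A binds and blocks the complex. In plants the core subunits of the complex are also the processing peptidase that removes targeting presequences from imported proteins, so these genes serve respiration and protein import alike. QCR7 and QCR8 are small subunits without redox centres that hold the complex together.

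The deposited values are normalized signals on a scale set for each table, so that sequencing depth is unknown. Their sums ran from 21434513 to 45133150 per library and measure that scale and not reads. The wild-type libraries that stand in both line tables were lower in the 2OX tables than in the sextuple tables by 0.22 to 0.25 on the log2 scale. Levels are therefore compared only within a table, except where stated. MCU2 had values of 549 to 800 in 2OX monosomes, against 177 to 269 in WT monosomes, and 763 to 999 in 2OX polysomes, against 196 to 227 in WT polysomes, whereas in sextuple it had 153 to 211 in monosomes and 209 to 247 in polysomes, against 210 to 333 and 233 to 310 in WT. Alternative oxidase AOX1a, the usual marker of mitochondrial stress, had 41338 to 49386 in AA polysomes, against 22477 to 27113 in DMSO polysomes (log2 change 0.86, limma adjusted p = 0.00436), and its monosome change of 0.39 did not pass (adjusted p = 0.101). AOX1a also rose in 2OX polysomes, with 1862 to 2539 against 969 to 1238 in WT polysomes (1.07, adjusted p = 0.00812, and up to 0.102 with 1 replicate left out). Although scales differ between the experiments, AOX1a in DMSO polysomes stood far above these WT values. QCR7-1, by comparison, had 16279 to 18065 in DMSO polysomes and 9189 to 11065 in the same WT polysomes. Changes under AA are thus relative to DMSO seedlings with already high AOX1a, and this difference between experiments was not tested. The 5 leaf markers measured in the AA tables, among them RBCS1A and LHCB1.3, were abundant in all libraries. In AA monosomes all 5 were above 0 (median log2 change 0.38) and 1 passed, RCA (0.51, adjusted p = 0.0173), where 11.6% of all genes rose, and in AA polysomes none passed (median 0.06). Their summed value was 647559 to 1117555 in AA monosomes, against 555964 to 838895 in DMSO monosomes, and 313242 to 517924 in AA polysomes, against 340567 to 389032 in DMSO polysomes. Of the 7 root markers 4 were lower in AA monosomes and 1 was higher, with a median log2 change of -1.56. In AA polysomes 3 of the 5 tested were lower (median -1.33), where 10.4% of all genes fell in either fraction. Their summed value was 1622 to 2280 in AA monosomes, against 1718 to 2056 in DMSO monosomes, and 1144 to 1518 in AA polysomes, against 1580 to 1964 in DMSO polysomes, without overlap in the polysomes. The part of these shifts in the results below was not tested, and in such bulk samples fewer cells of a type and less RNA per cell cannot be told apart.

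The members lie on 4 of the 5 chromosomes by RefSeq (TAIR10.1, the minor update of the TAIR10 build that the sample labels name). The Rieske genes are neighbours on chromosome 5, UCR1-1 at 4305106 to 4307570 and UCR1-2 at 4307973 to 4310273, both on the minus strand with 402 bases between them. Their coding sequences are 94.7% identical over 816 aligned bases, and their exons share an unbroken run of 155 bases. The other pairs are less alike: 87.9% for CYC1-1 and CYC1-2 (longest shared run 35 bases), 82.2% for MPPalpha-1 and MPPalpha-2 (43 bases) and 74.8% for QCR7-1 and QCR7-2 (17 bases). How reads that match both copies were counted is not given in the sources used here, so the split of signal between the Rieske genes is the least certain one. The library kit does not mark strand, and 6 of the 10 genes overlap a neighbour in the annotation, by 20 bases for UCR1-2 and by 299 bases for QCR7-2, whose overlap is with a noncoding RNA gene on the opposite strand. QCR8-1 overlaps AT3G10850 by 212 bases and AT3G10870 by 103 bases, both protein-coding genes on the opposite strand. MPPalpha-1, MPPalpha-2, QCR7-1 and UCR1-1 overlap none.

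The promoters were read to set the copies of each subunit side by side. Site II elements (TGGGCC or TGGGCT), hexamers known from promoters of nuclear genes for mitochondrial and ribosomal proteins in plants, were searched on both strands from 250 bases before to 50 bases after the annotated gene start. They stood in the windows of 7 of the 10 members, while 21.7% of the 27443 windows of protein-coding genes held at least 1. In 6 members there were 2 or more (13.7% of all windows): QCR7-1 held 4, CYC1-1, MPPalpha-1 and MPPalpha-2 held 3 each, and CYC1-2 and MPPbeta held 2 each, whereas UCR1-2 held 1. UCR1-1, QCR7-2 and QCR8-1 held none. The mitochondrial dysfunction motif, searched on both strands as CTTG and, after 5 bases of any kind, CAAG or CACG, was in none of the 10 windows and in 1.42% of all windows. The forms do not overlap one another in these windows, and a match is a string of letters and not a shown binding site. The 250 bases before the start of the 3 pairs in which 1 copy passed a test under AA are printed 5′ to 3′ on the strand of the gene, from RefSeq TAIR10.1, with site II elements in capitals. The windows are QCR7-2 (chr5:8856667-8856916, strand +), QCR7-1 (chr4:15671250-15671499, strand -), CYC1-1 (chr3:10058774-10059023, strand -), CYC1-2 (chr5:16339613-16339862, strand +), UCR1-2 (chr5:4310274-4310523, strand -) and UCR1-1 (chr5:4307571-4307820, strand -).
QCR7-2: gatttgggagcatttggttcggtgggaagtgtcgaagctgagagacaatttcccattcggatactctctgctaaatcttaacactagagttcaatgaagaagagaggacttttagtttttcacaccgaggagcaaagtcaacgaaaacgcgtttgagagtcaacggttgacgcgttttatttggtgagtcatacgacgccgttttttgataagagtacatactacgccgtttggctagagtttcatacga
QCR7-1: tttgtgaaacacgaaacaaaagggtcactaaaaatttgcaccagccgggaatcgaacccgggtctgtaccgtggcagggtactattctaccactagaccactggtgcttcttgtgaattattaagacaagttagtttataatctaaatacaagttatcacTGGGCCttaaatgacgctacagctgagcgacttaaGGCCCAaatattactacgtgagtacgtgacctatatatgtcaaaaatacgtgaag
CYC1-1: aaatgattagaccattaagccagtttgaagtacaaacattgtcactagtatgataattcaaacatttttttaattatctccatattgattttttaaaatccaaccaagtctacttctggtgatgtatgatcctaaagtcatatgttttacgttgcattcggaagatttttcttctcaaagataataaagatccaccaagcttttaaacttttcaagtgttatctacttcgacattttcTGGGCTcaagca
CYC1-2: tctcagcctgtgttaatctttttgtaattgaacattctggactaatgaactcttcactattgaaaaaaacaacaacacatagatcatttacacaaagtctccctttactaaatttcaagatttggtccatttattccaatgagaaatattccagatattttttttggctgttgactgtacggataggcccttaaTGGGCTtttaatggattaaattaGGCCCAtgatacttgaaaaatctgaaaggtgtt
UCR1-2: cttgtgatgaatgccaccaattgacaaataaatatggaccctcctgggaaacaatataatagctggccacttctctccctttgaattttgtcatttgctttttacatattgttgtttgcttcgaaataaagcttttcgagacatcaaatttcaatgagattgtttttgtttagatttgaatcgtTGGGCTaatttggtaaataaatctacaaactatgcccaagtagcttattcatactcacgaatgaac
UCR1-1: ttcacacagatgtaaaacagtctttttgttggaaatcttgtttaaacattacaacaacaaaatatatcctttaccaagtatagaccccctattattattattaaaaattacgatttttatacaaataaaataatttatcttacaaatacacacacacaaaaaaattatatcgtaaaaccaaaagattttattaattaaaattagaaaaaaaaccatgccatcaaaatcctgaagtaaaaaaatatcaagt

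The QCR7-1 stretch shows a pair of elements on opposite strands, and 2 more begin at 6 and 18 bases after the start, beyond what is printed. CYC1-1 shows 1 element close to the start, with 2 more at 10 and 20 bases after it, and CYC1-2 shows a facing pair. The stretch before UCR1-1 lies wholly within the 402 bases that separate it from UCR1-2.

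**Figure D1:**
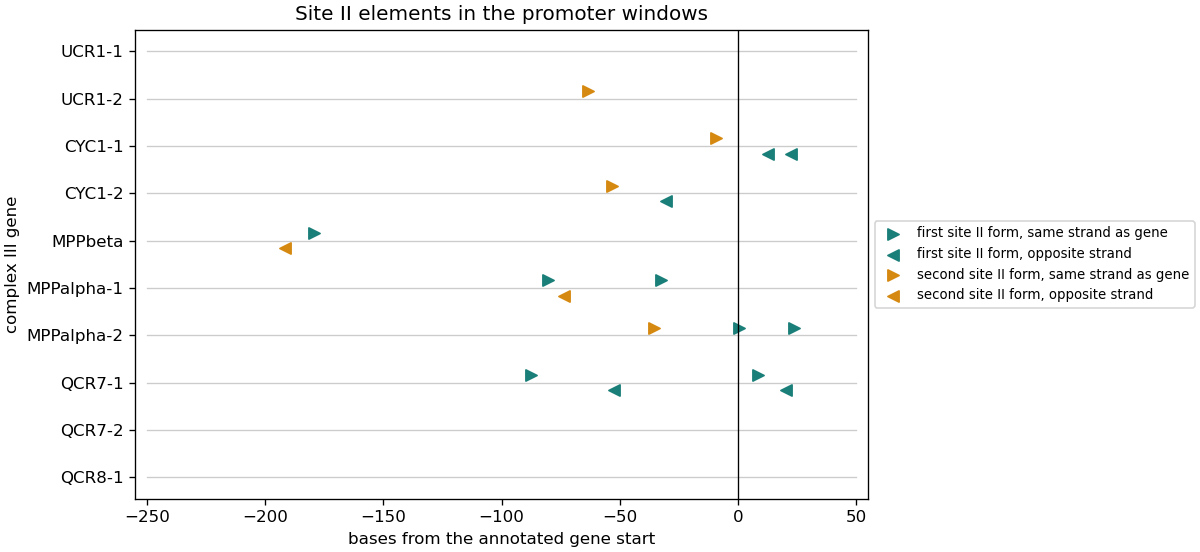
Site II elements in the windows of the 10 complex III genes, by distance in bases from the annotated gene start (x axis) and gene (y axis), with arrowheads for the strand and colours for TGGGCC (first form) and TGGGCT (second form). Markers stand in 7 windows, and the lines of UCR1-1, QCR7-2 and QCR8-1 are empty.

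Per kilobase of annotated exon, QCR7-1 led in 11 of the 12 sets of libraries (3 comparisons, 2 fractions, group and control), and QCR7-2 was the lowest in all 12. In AA polysomes the means were 17712 ± 428 per kb for QCR7-1, 10620 ± 2037 for QCR8-1, 5546 ± 477 for MPPbeta, 3274 ± 178 for UCR1-1, 3139 ± 699 for UCR1-2, 2566 ± 715 for MPPalpha-1, 2552 ± 620 for CYC1-1, 1677 ± 287 for CYC1-2, 548 ± 56.3 for MPPalpha-2 and 414 ± 133 for QCR7-2 (SD, n = 3). In that order QCR7-1, QCR8-1, MPPbeta and CYC1-2 were above the gene that follows in every library, and all other neighbours overlapped. In DMSO polysomes the order was QCR7-1 (18321 ± 989), QCR8-1 (8210 ± 1521), MPPbeta (5770 ± 475), CYC1-1 (3762 ± 115), UCR1-1 (3746 ± 311), UCR1-2 (3363 ± 250), MPPalpha-1 (3362 ± 218), CYC1-2 (1968 ± 183), MPPalpha-2 (710 ± 34.2) and QCR7-2 (174 ± 26.8), where neighbours among the 4 genes from CYC1-1 to MPPalpha-1 overlapped. The lead was by mean alone in sextuple monosomes and in the WT monosomes of that table, where QCR7-1 and QCR8-1 overlapped. The exception among the 12 sets was DMSO monosomes, where QCR8-1 averaged 8618 ± 2316 per kb and overlapped QCR7-1 at 8250 ± 388. MPPalpha-2 was a minor copy in every set, at means of 218 ± 22.7 to 710 ± 34.2 per kb, and MPPbeta was above both MPPalpha copies in every set.

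The AA comparison asks how loss of electron flow through complex III, brought about by its own inhibitor, changes the ribosome-bound messages of the complex. In the monosome fraction 1 of the 10 members, UCR1-2, rose at an adjusted p below 0.05, and none fell, where 11.6% of the 21095 genes tested rose and 10.4% fell. The median log2 change of the members was 0.25, against -0.02 over all genes tested, and 8 of the 10 values were above 0. In the polysome fraction QCR7-2 rose and CYC1-1 fell, 1 member in each direction, where 8.48% of 20614 genes rose and 10.4% fell. The median there was -0.16, against 0.01 over all genes, and 8 of the 10 values were below 0. An unadjusted p below 0.05 was found for 2 members in monosomes (33.9% of all genes) and 3 in polysomes (32.2%). The share of members called was thus near or below the background in both fractions.

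**Figure D2:**
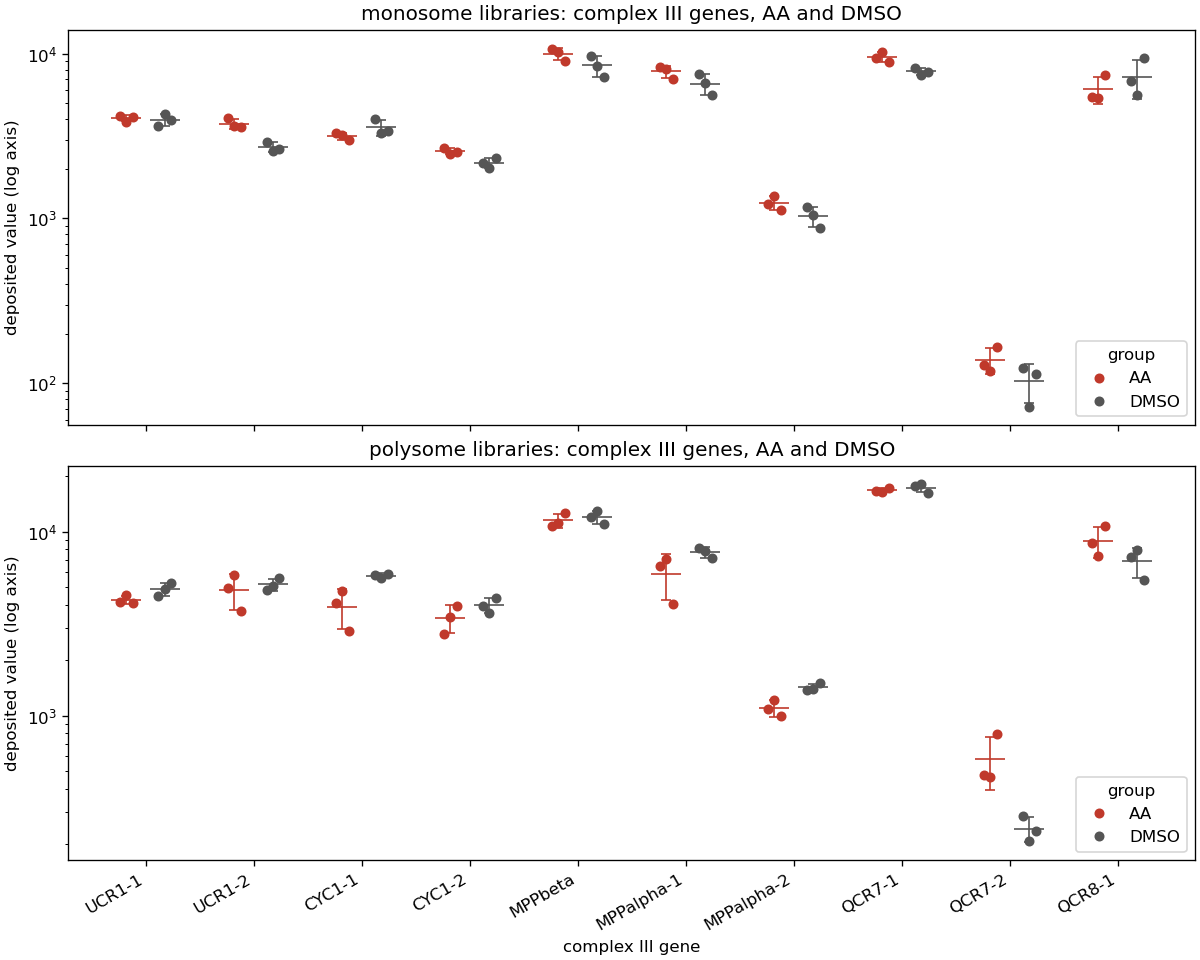
Deposited values (y axis, logarithmic) of the 10 complex III genes (x axis) in monosome libraries (top) and polysome libraries (bottom) under AA and DMSO; points are libraries, horizontal bars means and vertical bars SD (n = 3). UCR1-2 monosomes lie between 3596 and 4069 under AA and between 2553 and 2914 under DMSO, and QCR7-2 polysomes between 465 and 792 under AA and between 209 and 283 under DMSO.

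UCR1-2, one of the Rieske genes, had monosome values of 4069, 3627 and 3596 in AA, against 2914, 2553 and 2645 in DMSO. All AA libraries were above all DMSO libraries. The log2 change was 0.48 ± 0.12 (SE, 1.39-fold; limma adjusted p = 0.00800) and stayed between 0.42 and 0.53 with any 1 replicate left out. Without a variance trend in the fit it did not pass (adjusted p = 0.0639). Its neighbour UCR1-1 had 4171, 3851 and 4108 in AA monosomes, against 3651, 4284 and 3972 in DMSO monosomes. These values overlapped, with a change of 0.03 ± 0.12 (SE, adjusted p = 0.893). In polysomes neither Rieske gene passed the test: UCR1-2 had 4927, 5828 and 3693 in AA, against 4830, 5067 and 5579 in DMSO (-0.12 ± 0.18, SE, adjusted p = 0.684). UCR1-1 had 4149, 4515 and 4086 in AA polysomes, against 4458, 4864 and 5266 in DMSO polysomes (-0.19 ± 0.14, SE, adjusted p = 0.389).

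CYC1-1, the cytochrome c1 gene with the higher level per kb, had polysome values of 4118, 4728 and 2866 in AA, against 5786, 5567 and 5915 in DMSO. The AA libraries were all below the DMSO libraries, and AA replicate 3 was the lowest by a wide margin. The log2 change was -0.59 ± 0.19 (SE, 0.664-fold; adjusted p = 0.0441). Without AA replicate 3 the change was -0.38 (adjusted p = 0.0412), and without any 1 of the DMSO replicates the call was lost, with adjusted p of 0.118 to 0.144, as it was without a variance trend (adjusted p = 0.12). In monosomes CYC1-1 had 3288, 3203 and 2984 in AA, against 4032, 3289 and 3368 in DMSO, and the groups did not overlap, by a narrow margin (-0.17 ± 0.12, SE, adjusted p = 0.355). Its paralog CYC1-2 had 2675, 2475 and 2544 in AA monosomes, against 2181, 2017 and 2321 in DMSO monosomes. Here the AA libraries were the higher ones, though the change of 0.24 ± 0.12 (SE) did not pass (adjusted p = 0.165). CYC1-2 polysomes overlapped, with 2784, 3450 and 3938 in AA, against 3941, 3630 and 4367 in DMSO (-0.24 ± 0.17, SE, adjusted p = 0.346).

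The processing peptidase genes did not pass the test in either fraction. MPPbeta, which carries the catalytic zinc site, had 10662, 10217 and 9028 in AA monosomes, against 9710, 8461 and 7241 in DMSO monosomes (0.24 ± 0.14, SE, adjusted p = 0.227). Its polysome values of 10688, 11191 and 12595 in AA and 11952, 12941 and 10972 in DMSO were intermixed (-0.06 ± 0.15, SE, adjusted p = 0.83). MPPalpha-1, the main copy of the subunit that recognises presequences, had 8278, 8052 and 7028 in AA monosomes, against 7521, 6588 and 5612 in DMSO monosomes (0.25 ± 0.13, SE, adjusted p = 0.201). Its AA polysome values of 6522, 7127 and 4029 were all below the DMSO values of 8174, 7796 and 7185, with AA replicate 3 again lowest (-0.43 ± 0.20, SE, adjusted p = 0.17). MPPalpha-2 showed the same layout with less spread, 1086, 1219 and 994 in AA polysomes against 1380, 1392 and 1504 in DMSO polysomes (-0.38 ± 0.15, SE, adjusted p = 0.108). In monosomes it had 1216, 1372 and 1132 in AA, against 1174, 1045 and 875 in DMSO (0.27 ± 0.15, SE, adjusted p = 0.208).

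Among the small subunits, QCR7-2 had the largest change of any member. Its polysome values were 476, 465 and 792 in AA, against 283, 209 and 235 in DMSO, without overlap. The log2 change was 1.21 ± 0.23 (SE, 2.32-fold; adjusted p = 0.00379), and it was 0.96 (adjusted p = 0.00161) without AA replicate 3, the highest library. In monosomes QCR7-2 had 130, 119 and 167 in AA, against 124, 72.1 and 115 in DMSO (0.44 ± 0.33, SE, adjusted p = 0.370). QCR7-1, the abundant copy, had 16717, 16371 and 17179 in AA polysomes, against 17652, 18065 and 16279 in DMSO polysomes, an overlapping pair of groups with a change of -0.05 ± 0.15 (SE, adjusted p = 0.857). Its AA monosome values of 9419, 10194 and 8894 were above the DMSO values of 8192, 7462 and 7760 (0.28 ± 0.12, SE, adjusted p = 0.107). QCR8-1 was the most variable abundant member: 5424, 5373 and 7371 in AA monosomes, against 6775, 5569 and 9375 in DMSO monosomes (-0.24 ± 0.17, SE, adjusted p = 0.352). In polysomes it had 8619, 7381 and 10762 in AA, against 7259, 7954 and 5477 in DMSO (0.37 ± 0.19, SE, adjusted p = 0.203). In both fractions AA replicate 3 was the highest AA library for QCR8-1 and QCR7-2.

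AA libraries did not overlap DMSO libraries for 4 members in monosomes, 3 above (UCR1-2, CYC1-2 and QCR7-1) and CYC1-1 below, where 18.4% of all genes tested were wholly above and 19% wholly below. In polysomes QCR7-2 was wholly above, and CYC1-1, MPPalpha-1 and MPPalpha-2 were wholly below, where the shares over all genes were 18% and 19.7%.

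**Figure D3:**
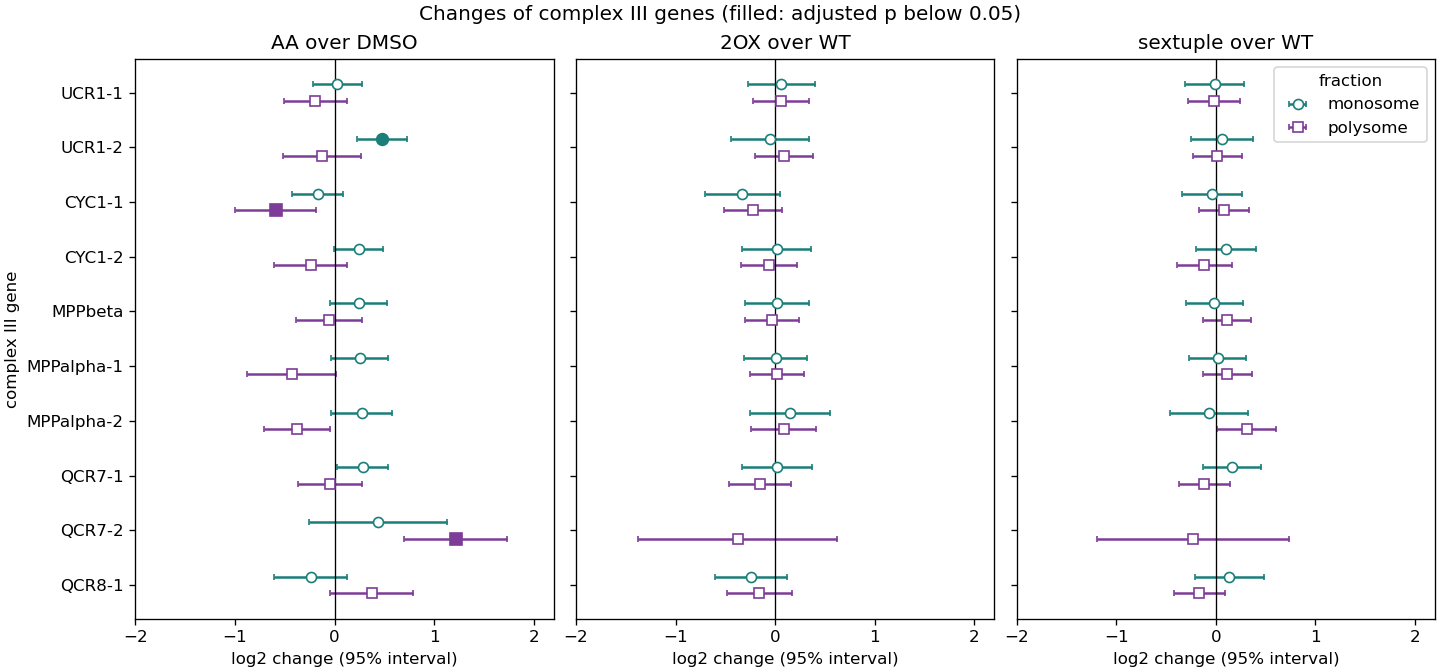
Log2 change with its 95% interval (x axis) of the 10 complex III genes (y axis) in AA over DMSO, 2OX over WT and sextuple over WT, for monosomes (circles) and polysomes (squares); filled symbols have an adjusted p below 0.05. The 3 filled symbols are UCR1-2 monosomes at 0.48, CYC1-1 polysomes at -0.59 and QCR7-2 polysomes at 1.21, all under AA; QCR7-2 monosomes were not tested in the lines.

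The relation of polysome to monosome signal, which the study takes as a measure of translational efficiency (TE), was tested as the interaction of fraction and treatment. No member passed at an adjusted p below 0.05, where 0.101% of the 21769 genes tested were higher and 0.786% lower. Before adjustment 5 of the 10 members had p below 0.05, against 11.9% of all genes: MPPalpha-2 (-0.65 ± 0.21, SE, adjusted p = 0.18), MPPalpha-1 (-0.68 ± 0.25, SE, adjusted p = 0.28), UCR1-2 (-0.60 ± 0.21, SE, adjusted p = 0.252), CYC1-2 (-0.48 ± 0.20, SE, adjusted p = 0.333) and QCR8-1 (0.61 ± 0.28, SE, adjusted p = 0.403). The median over the 10 members was -0.38, against 0.04 over all genes, and 8 values were below 0. QCR8-1 and QCR7-2 (0.78 ± 0.38, SE, adjusted p = 0.435) were the 2 above 0. Without AA replicate 3 the median was -0.42 and 7 members had an unadjusted p below 0.05, and no member passed after adjustment.

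Taken per replicate, with the fractions matched by replicate number, and relative to the median of all genes, the log2 polysome to monosome ratio of MPPalpha-2 was -0.05, -0.03 and 0.04 in AA, against 0.37, 0.57 and 0.97 in DMSO. That of MPPalpha-1 was -0.23, -0.04 and -0.58 in AA, against 0.26, 0.40 and 0.54 in DMSO. Both peptidase alpha genes thus lay at or below the typical gene under AA and above it under DMSO, with no overlap. UCR1-2 had 0.38, 0.83 and 0.26 in AA, against 0.87, 1.14 and 1.26 in DMSO. CYC1-2 had 0.17, 0.62 and 0.85 in AA, against 0.99, 1.00 and 1.10 in DMSO, and QCR7-1 had 0.94, 0.82 and 1.17 in AA, against 1.25, 1.43 and 1.25 in DMSO. QCR7-2 went the other way, with 1.98, 2.10 and 2.47 in AA, against 1.32, 1.68 and 1.22 in DMSO. In all, AA replicates were wholly below DMSO replicates for 5 members and wholly above for 1, where 10.8% and 10.3% of all genes were. The remaining 4 members, UCR1-1, CYC1-1, MPPbeta and QCR8-1, overlapped. Even so, members stayed mostly above the typical gene: 8, 8 and 9 of the 10 in AA replicates, against 10, 10 and 9 in DMSO replicates. In untreated WT of the 2OX and sextuple comparisons MPPalpha-1 averaged -0.09 and -0.05, MPPalpha-2 0.08 and 0.12, and UCR1-2 0.60 and 0.78. CYC1-2 averaged 0.50 and 0.69, QCR7-1 0.97 and 1.20, and QCR7-2 1.16 and 1.13. WT means of the MPPalpha genes, UCR1-2 and CYC1-2 were nearer to the AA than to the DMSO means. Those of QCR7-2 were nearer to DMSO, and those of QCR7-1 were divided. The experiments differ in culture, and this difference was not tested.

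**Figure D4:**
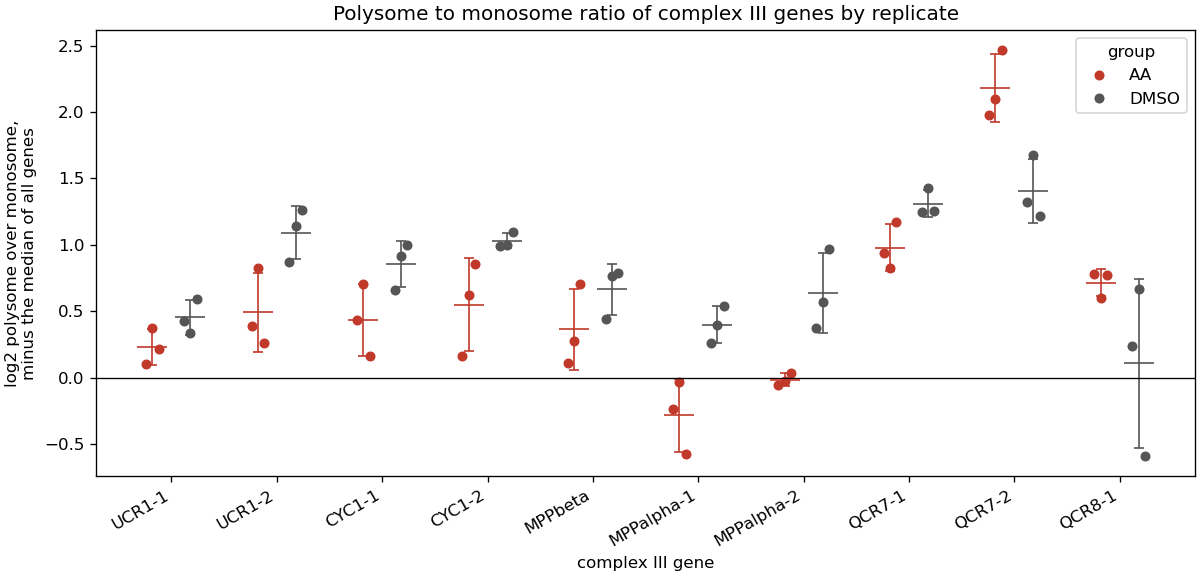
Log2 polysome over monosome value minus the median of all genes tested (y axis) for the 10 complex III genes (x axis) in the 3 AA and the 3 DMSO replicates; horizontal bars are means and vertical bars SD. AA points lie below all DMSO points for UCR1-2, CYC1-2, MPPalpha-1, MPPalpha-2 and QCR7-1, and above them for QCR7-2.

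No member passed the test in 2OX or sextuple, in either fraction or in TE, and none did under any alternative setting or with any replicate left out. In 2OX monosomes 9 members were tested, where 0.0611% of 19637 genes rose and 0.0255% fell (0.0866% in all). None had p below 0.05 before adjustment, as 4.9% of all genes did, and none was wholly above (4.95% of all genes) or wholly below WT (5.09%). Their median change was 0.02, against -0.01 over all genes, and their 95% intervals lay between -0.70 and 0.55. In 2OX polysomes all 10 were tested, where 0.146% of all genes rose and 0.0252% fell. Again none had p below 0.05 before adjustment (5.76% of all genes) and none was wholly above WT (5.36%), and outside QCR7-2 the intervals lay between -0.51 and 0.41. CYC1-1 had the lowest change in monosomes and, after QCR7-2, in polysomes. It had 1710, 2162 and 1990 in 2OX polysomes, against 2235, 2271 and 2300 in WT polysomes, which did not overlap (-0.22 ± 0.13, SE, adjusted p = 0.964). Over all genes, 5.09% were wholly below in that comparison. Its monosome values were 1041, 928 and 1174 in 2OX, against 1153, 1568 and 1244 in WT (-0.33 ± 0.17, SE).

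In sextuple monosomes 9 members were tested, where 0.0503% of 19892 genes rose and 0.0503% fell. None had p below 0.05 before adjustment (5.6% of all genes), and none was wholly above (5.06%) or wholly below WT (5.68%), with intervals between -0.46 and 0.48. In sextuple polysomes MPPalpha-2 was the single member with p below 0.05 before adjustment, as were 10% of the 20110 genes tested. It had 936, 875 and 760 in sextuple, against 709, 705 and 652 in WT (0.31 ± 0.14, SE, limma adjusted p = 0.473). The 3 sextuple libraries were above the WT libraries also for CYC1-1 (2741, 2758 and 3009 in sextuple, against 2656, 2653 and 2730 in WT), MPPbeta (7075, 6990 and 6862, against 6365, 6514 and 6486) and MPPalpha-1 (3891, 3781 and 3740, against 3486, 3443 and 3603). The share of genes called was 0.0547% higher and 0.0945% lower. Thus 4 of 10 members were wholly above, where 7.27% of all genes were, at changes of 0.08 to 0.31. QCR8-1 was wholly below, with 4561, 5323 and 5163 in sextuple, against 5413, 5976 and 5471 in WT (-0.17 ± 0.12, SE, adjusted p = 0.67; 7.97% of all genes). For TE no member had p below 0.05 before adjustment in 2OX or in sextuple, where 1.65% and 3.55% of all genes did and 0.00486% and 0% were called higher. By the polysome to monosome ratio of each replicate, all members overlapped in 2OX (3.92% of all genes wholly above and 4.19% wholly below), while CYC1-1 and MPPalpha-2 were wholly above WT in sextuple (4.89%) and none was wholly below (5.91%).

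QCR7-2 had low values in the seedlings taken from plates. It had 1.83, 0.428 and 8.77 in 2OX monosomes, against 10.0, 11.6 and 3.91 in WT monosomes, and 8.67, 5.50 and 0 in sextuple monosomes, where replicate 3 is listed at 0, against 13.6, 11.8 and 4.78 in WT monosomes. It did not pass the filter on low values in either monosome table. In polysomes it had 25.3, 15.8 and 16.5 in 2OX, against 37.6, 24.4 and 16.2 in WT (-0.38 ± 0.46, SE, adjusted p = 0.988), and 37.1, 22.0 and 16.7 in sextuple, against 26.1, 44.0 and 19.7 in WT (-0.23 ± 0.45, SE, adjusted p = 0.89).

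Ratios between paralogs were taken within each library. The authors' adjustment was not a single factor for genes with low values, so ratios with QCR7-2 in the plate-grown seedlings are approximate across tables. The ratio of QCR7-2 to QCR7-1 was 0.0285, 0.0285 and 0.0462 in AA polysomes, against 0.0161, 0.0116 and 0.0145 in DMSO polysomes. In the plate-grown seedlings it was 0.0016 to 0.0032 in 2OX polysomes, 0.0015 to 0.0034 in sextuple polysomes and 0.0017 to 0.0035 in WT polysomes. The DMSO seedlings thus already stood above every plate-grown library; the 2 experiments differ in culture and handling, with a night in liquid medium in the dark before AA or DMSO, which cannot be told apart from each other, and this difference was not tested. The ratio of CYC1-2 to CYC1-1 was 0.814, 0.773 and 0.852 in AA monosomes, against 0.541, 0.613 and 0.689 in DMSO monosomes, without overlap. That of UCR1-2 to UCR1-1 was 0.976, 0.942 and 0.875 in AA monosomes, against 0.798, 0.596 and 0.666 in DMSO monosomes, likewise without overlap. In untreated WT monosomes the CYC1 ratio was 0.770 to 0.945 and the UCR1 ratio 0.762 to 0.994. All AA monosome values of both ratios lay within these WT ranges. All DMSO values of CYC1 lay below them, as did the UCR1 values of 0.596 and 0.666. These differences between the experiments were likewise not tested. In all 6 sets of libraries (group and control of the 3 comparisons) the UCR1 ratio was higher on average in polysomes than in monosomes. The sets are not all separate, since WT replicates 2 and 4 stand in both WT sets. In 2OX, for example, the UCR1 ratio was 1.23 in polysomes against 0.789 in monosomes. The MPPalpha-2 to MPPalpha-1 ratio differed little between treatments, 0.159 in AA monosomes against 0.157 in DMSO monosomes as geometric means.

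Of the 24 ratio tests (4 pairs, 3 comparisons, 2 fractions; two-sided exact permutation tests over 3 against 3 libraries), 5 had groups without overlap and reached 0.1, the smallest p this design allows, and all adjusted p-values were 0.48 or more. The differences of mean log2 ratio were 0.45 for UCR1 and 0.41 for CYC1 in AA monosomes, 1.26 for QCR7 in AA polysomes, 0.34 for CYC1 in 2OX monosomes and -0.20 for CYC1 in sextuple polysomes. In AA polysomes the CYC1 ratio of replicate 3 was 1.37, while replicates 1 and 2 had 0.676 and 0.730, against 0.681, 0.652 and 0.738 in DMSO polysomes.

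**Figure D5:**
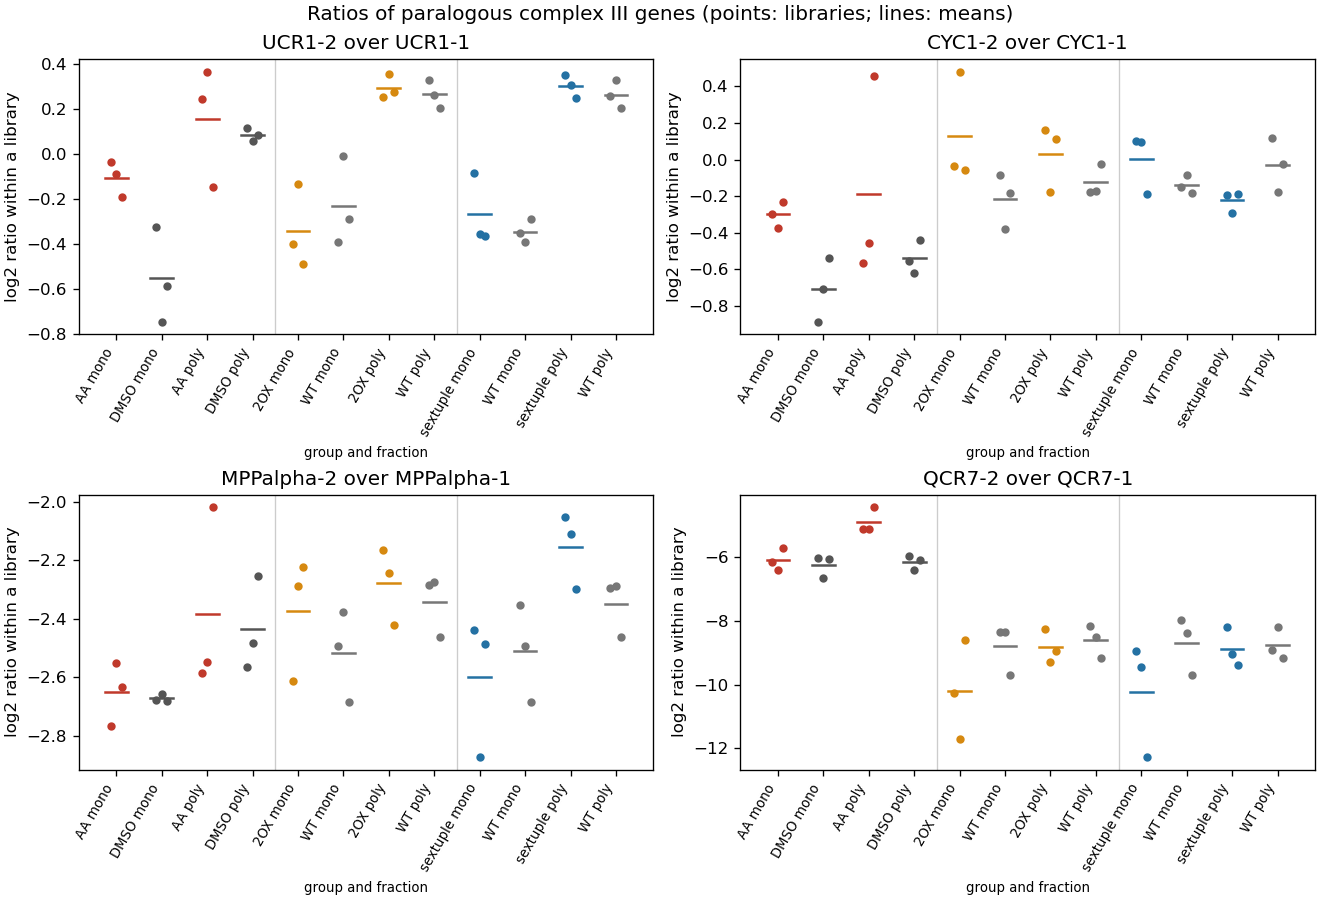
Log2 ratio of paralogous complex III genes within each library (y axis) for every group and fraction (x axis; mono is monosome, poly is polysome); points are libraries and lines means (n = 3). QCR7-2 over QCR7-1 averages -4.90 in AA polysomes, -6.16 in DMSO polysomes and -8.61 in the WT polysomes of the 2OX table.

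Whether a member changed differently under AA than in a line was tested as the difference of the 2 log2 changes. Against 2OX, 1 of 10 members passed in polysomes: QCR7-2, with a difference of 1.59 ± 0.45 (SE, adjusted p = 0.0347), where 3.65% of 21193 genes were higher and 4.91% lower. Against sextuple, QCR7-2 was higher (1.45 ± 0.47, SE, adjusted p = 0.0494), while MPPalpha-2 (-0.69 ± 0.20, SE, adjusted p = 0.0249) and CYC1-1 (-0.67 ± 0.22, SE, adjusted p just under the threshold of 0.05) were lower under AA, where 5.67% of 21287 genes were higher and 7.7% lower. These calls were near the threshold, and each was lost with some single replicates left out. QCR7-2 lost its call in 8 of 12 such fits against 2OX and in 10 of 12 against sextuple. MPPalpha-2 lost its call in 4 of 12, and CYC1-1 in 10 of 12, at an adjusted p of 0.0624 to 0.106. QCR7-2 against sextuple was also lost with libraries rescaled to the same median (adjusted p = 0.0508). In monosomes and in TE no member passed; the backgrounds were 3.56% higher and 2.69% lower in monosomes against 2OX, 4.31% and 3.69% against sextuple, and at most 0.255% in TE.

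The remaining subunit genes of complex III, not among the 10, are QCR6-1, QCR6-2, QCR8-2, QCR9 and QCR10. None of the 5 passed in any comparison. Over all genes 22% passed in AA monosomes, 18.8% in AA polysomes, 0.887% in TE under AA and at most 0.171% in the lines. Their median change was -0.07 in AA monosomes and 0.21 in AA polysomes, and their TE values under AA were all above 0 (median 0.26), on the other side of 0 from the median of the 10 members. Cytochrome b is listed under the chromosome 2 copy of the mitochondrial gene (AT2G07727, COB copy), so its reads may come from either. COB copy had 18.5, 32.7 and 65.2 in AA monosomes, against 373, 277 and 58.5 in DMSO monosomes, overlapping through DMSO replicate 3 (-2.38 ± 0.59, SE, adjusted p = 0.00782, and 0.0675 without DMSO replicate 1). In polysomes it had 644, 811 and 1447 in AA, against 348, 602 and 262 in DMSO (1.26 ± 0.33, SE, adjusted p = 0.019, and 0.0736 and 0.107 without DMSO replicates 1 and 3). The interaction of fraction and treatment was 3.64 ± 0.77 (SE, limma adjusted p = 0.0296). It did not pass without AA replicate 1 or 2 or DMSO replicate 1 or 2 (adjusted p of 0.0761 to 0.227). The study's gradients assessed cytosolic translation, so for reads of the mitochondrial gene this interaction is no measure of translational efficiency. The COB copy values are low beside those of most members, and the libraries were made from polyadenylated RNA.

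Cytochrome c, the acceptor of the complex, is encoded by CYTC-1 and CYTC-2. CYTC-2 rose in AA polysomes (0.59 ± 0.18, SE, adjusted p = 0.0376), and CYTC-1 was at 0.31 (adjusted p = 0.197). Of the 4 peptidases that act on presequences after the processing peptidase, ICP55 rose in both AA fractions, by 0.45 in monosomes (adjusted p = 0.0445) and 0.58 in polysomes (adjusted p = 0.0218). OCT1, PREP1 and PREP2 did not pass in either. Lists for the other respiratory complexes were compiled by the study itself. Over all genes 11.6% were higher and 10.4% lower in AA monosomes, and 8.48% and 10.4% in AA polysomes. The lists gave under AA in monosomes 9 higher and 1 lower of 32 for complex I (NDUFV1 0.75, NDUFV2 0.59), 3 and 1 of 11 for complex II (SDH3-1 0.95, SDH5 0.62), 1 and 0 of 13 for complex IV (COX 5b-1 0.40) and 3 and 0 of 7 for complex V (ATP7 0.59, ATP16 0.55). In polysomes it was 1 and 1 for complex I (FPBP4 -0.59, At5g47570 0.59), 1 and 1 for complex II (SDH1-2 -2.46, SDH8 0.86), 2 and 2 for complex IV (COX X1-2 1.26, COX 5b-2 -0.61) and 0 and 1 for complex V (ATP2a -0.66). No gene of these lists passed in TE, where 0.887% of all genes did. The TE medians were -0.17 for complex I, -0.03 for complex II, 0.40 for complex IV and -0.62 for complex V. In 2OX and sextuple none of the genes of these 4 lists passed, where at most 0.171% of all genes did in any fit.

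Over the 12 AA and DMSO libraries, with each fraction centred on its mean, members did not share a single pattern. MPPalpha-1 and MPPalpha-2 were the most alike (Pearson r = 0.83 over 12 libraries), followed by CYC1-1 and MPPalpha-1 (0.78), while MPPalpha-2 and QCR8-1 ran opposite (-0.83), as did CYC1-1 and QCR7-2 (-0.81). QCR7-2 and QCR8-1 were the 2 members with a negative correlation to the mean of the others (-0.39 and -0.69). The 5 genes outside the list most like the mean profile of the members, of 21759, were AT3G52960 (0.95), MYB0 (AT3G27920, 0.94), AT2G22230 (0.93), GRF2 (AT1G78300, 0.93) and ARF1 (AT1G23490, 0.92). These points share libraries and scaling, and the values are descriptions.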

How the data were processed

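Monosome and polysome RNA of 32 libraries was compared in 36 columns of 6 single-fraction tables (3 comparisons), since some wild-type libraries stand in more than 1 table. The deposited values are an adjusted signal that looks scaled for library size within each table, by a method the sources used here do not state. They are neither whole reads nor scaled by gene length. The submitters' processing notes list Bowtie 0.12.2 and TAIR10, while the counter, the annotation and the treatment of reads that match several genes are not given in the sources used here. Depth is unknown, so no count test or counting interval was possible. Columns with the authors' own fold changes, p-values and translational efficiency were not used, and 3 combined tables repeat the same values (largest difference 0).

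Values were taken as log2(value + 1), so the change of low genes is understated, over genes with at least 10 in at least 3 libraries, and tested with limma 3.58.1 (R 4.3.3; lmFit and eBayes with a variance trend, two-sided, Benjamini-Hochberg over all genes of a fit, threshold 0.05). TE was the interaction of fraction and group over 12 libraries, with the fractions of a replicate not paired. Differences of changes were contrasts over both experiments. The study's methods name 3 biological replicates per treatment for RNA-seq. No source says that these were separate cultures, so p-values measure the spread between these samples. Paralog ratios had exact permutation tests (SciPy 1.17.1). Loci, motifs and identities came from RefSeq TAIR10.1 with Python 3.11.15 and Biopython 1.88, and the fits were tested on simulated data.

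The members and lists were chosen with earlier results of these data known, and the lists of complexes I, II, IV and V follow the study's own table, so that they are not independent evidence. Named were all 10 members, the other complex III genes, cytochrome c, the presequence peptidases, AOX1a, MCU2, at most 2 genes with the smallest adjusted p per complex list and fit, and the 5 genes most like the mean profile of the members. Alternatives were 2 other scalings, a pseudocount of 10, no filter, a minimum of 50, no variance trend, a replicate block and each replicate left out. The mitochondrial cytochrome b gene itself was not analysed here. The labels give 5 h of antimycin A, and the study's methods a somewhat shorter treatment after a night in liquid medium in the dark.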

Additional observations from a re-analysis of the deposited data

Results flagged for a closer look

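Polysome changes of 3 members differed between experiments by a test of the difference itself (limma, Benjamini-Hochberg adjusted p below 0.05). The AA change of QCR7-2 was above its 2OX change by 1.59 and above its sextuple change by 1.45. The AA change of MPPalpha-2 minus its sextuple change was -0.69, and that of CYC1-1 was -0.67. Each of these calls was lost in 4 to 10 of the 12 fits with 1 replicate left out. AA and DMSO seedlings were kept in liquid medium and the lines on plates, so that treatment and culture cannot be told apart in these differences.

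In wild type the log2 ratio of MPPalpha-2 to MPPalpha-1 in polysomes was -2.46 in 1 library (replicate 4), against -2.30, -2.29 and -2.28 in the other 3, a gap beyond Dixon's critical value for 4 samples. It was the only one of 8 such groups, and chance sets about 1 in 20 groups apart.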

How the results depend on the processing

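Of 1140 values of single members under the alternatives, 1132 kept their side of the threshold, 5 no longer passed and 3 newly passed. The sign switched in 61 of them, none of which passed as reported or after the switch, with reported sizes of up to 0.23. Without a variance trend 0 members rose in AA monosomes (UCR1-2 adjusted p = 0.0639) and 0 fell in AA polysomes (CYC1-1 adjusted p = 0.12), and calls over all genes in AA monosomes were 1327 higher and 1433 lower, against 2452 and 2193. With each library rescaled to the same median, 0 members were higher in the polysome difference between AA and sextuple (QCR7-2 adjusted p = 0.0508).

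Leaving out 1 replicate gave 0 to 1 members lower in AA polysomes, 0 to 1 higher in the difference between AA and 2OX, and 0 to 1 higher and 0 to 2 lower in that between AA and sextuple. QCR7-2 lost its call against 2OX in 8 of 12 such fits and against sextuple in 10 of 12, CYC1-1 in 10 of 12 and MPPalpha-2 in 4 of 12. UCR1-2 monosomes and QCR7-2 polysomes under AA passed in all 6.

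With the replicate number as a block, 4 members rose in AA monosomes: UCR1-2, QCR7-1 (adjusted p = 0.0274), MPPalpha-1 (0.0446) and MPPbeta (0.0495), where 14.6% of all genes were higher and 12.5% lower, against 11.6% and 10.4% without the block. The labels do not say what a number marks: same-numbered AA and DMSO libraries correlated at -0.06 to 0.08 in their deviations, below the level set for pairing. Monosome and polysome libraries of 1 number correlated at 0.05 to 0.17 in AA and DMSO, and differently numbered ones at 0.04 or less. Each library correlated best with its own number. The library codes in the labels carry the same number in both fractions of a replicate. No source used here says that such fractions came from the same gradient. The fits without a block were kept, as not every pair was above 0.1. For TE the block gave 97 higher and 373 lower of all genes, against 22 and 171, and 0 members, while 7 members in place of 5 had p below 0.05 before adjustment. In the lines the block gave 9 higher and 0 lower in 2OX polysomes, against 29 and 5, with 54 and 43 in sextuple monosomes, against 10 and 10, and 70 and 103 in sextuple polysomes, against 11 and 19. In each line only 2 replicate numbers stand in both group and control, so these block fits compare 2 libraries with 2. Without the trend TE under AA gave 10 and 28. The cause of these shifts was not tested. Depth is unknown, and 3 libraries per group limit every test here.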
